A study of Homo sapiens with 4 samples.

Results

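The genes described here are ZNF genes of human chromosome 19, measured in SU-DHL-5 and Toledo, established cell lines of diffuse large B-cell lymphoma (DLBCL). They were selected on their symbol (ZNF, a number and at most 1 letter), on their chromosome, and on a mean of at least 0.1 RPKM over the 8 libraries, where RPKM is reads per unit of transcript length, scaled to what each library mapped in all. This gave 202 genes of the 263 ZNF symbols listed on chromosome 19, of 562 ZNF symbols on any chromosome and of 41507 rows in the gene table. Of the other 61, 40 were listed at 0 in every library. Closest to the threshold, ZNF880 (mean 0.105 RPKM) and ZNF155 (0.123) lay just inside, and ZNF442 (0.0982) and ZNF599 (0.0950) just outside.

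The study treated each line with DMSO, the solvent, or with JQ1 at 1 µM, an inhibitor that displaces BET bromodomain proteins from acetylated chromatin. The labels give 6 h of treatment and the study's legend a longer time, so the duration is uncertain. There was 1 sample per line and treatment, sequenced as 2 libraries that were averaged, so n = 1 per group and no test of a treatment effect was possible. Both lines carried B-cell transcripts, with CD79A, CD79B, MS4A1, PAX5 and CD22 between 2.99 and 643 RPKM, while CD2, EPCAM and KRT8 were listed at 0; among other markers of T, myeloid and erythroid cells LYZ reached 1.20 RPKM and CD3E 1.09, both in SU-DHL-5 with DMSO, and their part in the results was not tested. HEXIM1, a gene that is known to be induced by BET inhibitors, had ratios of JQ1 to DMSO, on the log2 scale, of 2.43 for SU-DHL-5 and 2.57 for Toledo, and MYC had -0.29 and 0.03. The libraries held 14617583 to 17679831 mapped reads, of which 94.8% to 95.5% were on genes.

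ZNF genes encode proteins with arrays of C2H2 zinc fingers, each a short loop that holds a zinc ion and reads a few bases of DNA. In many of them a KRAB domain lies ahead of the fingers and recruits the co-repressor TRIM28, which brings the histone methyltransferase SETDB1 and HP1 proteins to silence nearby chromatin, in particular at transposable elements. The genes arose by repeated tandem duplication and stand in clusters along chromosome 19. Their transcripts are scarce and similar in sequence: the median over the 202 members was 1.72 RPKM, against 6.48 over the 11623 genes of any kind that passed the same minimum, and reads of near-identical copies may have been split among them by the authors' counting. In addition, 26 members overlapped another listed gene, among them ZNF57, ZNF83, ZNF146, ZNF296, ZNF324B, ZNF428, ZNF473, ZNF540, ZNF569, ZNF570, ZNF607, ZNF726 and ZNF790 of those named below, and whether reads were counted by strand is not given in the sources used here.

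A member was called lower (or higher) when both JQ1 libraries lay below (or above) both DMSO libraries and the means differed by at least 1.5-fold, as log2((JQ1 + 0.1)/(DMSO + 0.1)) in RPKM. The added 0.1 pulls the ratio of a scarce transcript towards 0. The RNA of many cells was sequenced together, so fewer expressing cells and less RNA per cell cannot be told apart. RPKM is relative to the library, so a change in the total RNA of the cells would not be seen. Where an interval is given, it is the exact binomial 95% interval of the ratio of reads, without the added 0.1, and it covers counting error only.

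Of the 202 members, 4 were called lower after JQ1 in both lines (ZNF579, ZNF432, ZNF573 and ZNF155) and 4 were called higher in both (ZNF837, ZNF333, ZNF701 and ZNF575). Each count was 1.98% of the members, against 9.54% of all genes called lower in both lines and 3.56% called higher in both. The count called higher depended on the library, with 13 from library 1 alone (6.44%, against 5.02% of all genes). With library 2 alone it was 1 (0.495%, against 3.10%). No member was called in opposite directions. The promoter sequences of a pair from each set, from 250 bases before to 50 after the RefSeq start of the gene, which can differ by some bases from the deposited coordinates given with each gene, follow, to show the sequence at the start of the genes whose values come first. They are from RefSeq, build GRCh38.p14, and read 5′ to 3′ on the strand of the gene. Capitals mark the letters GGGCGG or their reverse complement, the core of the GC box bound by SP1; the other motifs searched, described further on, were not in these 4 windows.
ZNF579, chr19:55580799-55581098, minus strand: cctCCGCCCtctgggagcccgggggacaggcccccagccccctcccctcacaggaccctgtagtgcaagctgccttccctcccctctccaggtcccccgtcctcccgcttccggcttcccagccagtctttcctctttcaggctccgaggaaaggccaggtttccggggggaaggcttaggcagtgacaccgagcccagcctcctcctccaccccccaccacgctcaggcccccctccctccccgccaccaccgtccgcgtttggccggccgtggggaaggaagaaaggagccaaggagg
ZNF432, chr19:52048789-52049088, minus strand: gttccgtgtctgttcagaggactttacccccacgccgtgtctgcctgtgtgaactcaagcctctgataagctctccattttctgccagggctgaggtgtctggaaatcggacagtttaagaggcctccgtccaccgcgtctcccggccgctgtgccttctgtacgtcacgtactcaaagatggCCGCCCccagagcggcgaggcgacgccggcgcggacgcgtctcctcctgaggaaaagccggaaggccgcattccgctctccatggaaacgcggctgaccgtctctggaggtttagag
ZNF837, chr19:58380981-58381280, minus strand: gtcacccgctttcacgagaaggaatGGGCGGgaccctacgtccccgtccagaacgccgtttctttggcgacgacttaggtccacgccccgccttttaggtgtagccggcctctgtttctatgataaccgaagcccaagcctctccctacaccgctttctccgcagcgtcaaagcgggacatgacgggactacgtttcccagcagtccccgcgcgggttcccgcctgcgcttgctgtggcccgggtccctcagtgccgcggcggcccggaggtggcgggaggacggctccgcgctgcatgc
ZNF701, chr19:52570037-52570336, plus strand: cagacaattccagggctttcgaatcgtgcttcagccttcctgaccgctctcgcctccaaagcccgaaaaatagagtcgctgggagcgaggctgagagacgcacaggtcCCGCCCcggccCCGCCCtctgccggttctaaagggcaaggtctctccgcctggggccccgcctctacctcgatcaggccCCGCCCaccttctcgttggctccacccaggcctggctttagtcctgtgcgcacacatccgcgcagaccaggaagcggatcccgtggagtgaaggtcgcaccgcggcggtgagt

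ZNF579 lies on the minus strand of chromosome 19 at chr19:55577525-55580845 (GRCh38) and its protein has 8 finger patterns and no match to the KRAB pattern used here. It stood at 5.20 and 5.57 RPKM in the DMSO libraries of SU-DHL-5 and at 1.79 and 2.11 in the JQ1 libraries, a log2 ratio of -1.42 (interval -1.77 to -1.18). In Toledo it stood at 3.05 and 3.49 RPKM with DMSO and at 1.19 and 1.51 with JQ1, a log2 ratio of -1.22 (-1.63 to -0.92). In both lines the JQ1 libraries lay below every DMSO library by more than the libraries of a sample differed.

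ZNF432 (chr19:52033424-52048820, minus strand), which has 16 finger patterns, stood at 0.965 and 1.03 RPKM with DMSO and at 0.518 and 0.505 with JQ1 in SU-DHL-5 (log2 ratio -0.84, interval -1.54 to -0.41). In Toledo it stood at 1.58 and 2.42 RPKM with DMSO and at 0.884 and 0.819 with JQ1 (-1.14, -1.64 to -0.81). The Toledo DMSO libraries differed from each other by 0.58 on the log2 scale, less than their distance from JQ1. ZNF573 (chr19:37738302-37779590), a KRAB-pattern gene, was scarcer, with 25 reads in DMSO against 10 in JQ1 in SU-DHL-5 (log2 ratio -0.81) and 58 against 18 in Toledo (-1.27); like ZNF575 further on, it had too few reads for the naming rule and was named after its values were seen. ZNF155 (chr19:43967862-43998325) rests on least: it had 30 reads against 9 in SU-DHL-5 (-1.02) and 9 against 1 in Toledo (-0.77).

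Among those called higher in both lines, ZNF837 (chr19:58367623-58381022, minus strand), with 8 finger patterns, was at 1.02 and 1.13 RPKM with DMSO and at 3.64 and 3.33 with JQ1 in SU-DHL-5, giving a ratio of 1.61 on the log2 scale (interval 1.30 to 2.11). In Toledo it was at 1.05 and 1.37 RPKM with DMSO and at 2.67 and 2.09 with JQ1, a log2 ratio of 0.92 (0.58 to 1.39). The DMSO levels of the lines were alike, and the JQ1 libraries of each line lay above all 4 DMSO libraries. With library 2 alone the Toledo ratio was 0.57, just under 1.5-fold.

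ZNF701 (chr19:52570273-52587174, plus strand) was at 0.819 and 0.895 RPKM with DMSO and at 1.538 and 1.504 with JQ1 in SU-DHL-5 (log2 ratio 0.76, interval 0.54 to 1.12), and at 0.708 and 0.748 with DMSO and 1.45 and 1.20 with JQ1 in Toledo (0.78, 0.56 to 1.18). ZNF333 (chr19:14690040-14733746, plus strand), which stands alone between clusters, was at 0.306 and 0.369 RPKM with DMSO and 0.689 and 0.847 with JQ1 in SU-DHL-5 (0.99, 0.77 to 1.58), and at 0.354 and 0.511 with DMSO and 1.07 and 0.776 with JQ1 in Toledo (0.94, 0.75 to 1.46). The Toledo ratio of ZNF333 rests on libraries that differed, with 1.36 from library 1 alone and 0.52, under 1.5-fold, from library 2 alone. With a pseudocount of 1 RPKM neither gene was called in either line. Both genes match the KRAB pattern. ZNF575 (chr19:43532859-43536138) had ratios of 0.61 and 1.501, from 9 reads against 16 in SU-DHL-5, where the interval of -0.36 to 2.26 spans 0, and from 22 against 71 in Toledo.

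**Figure D1:**
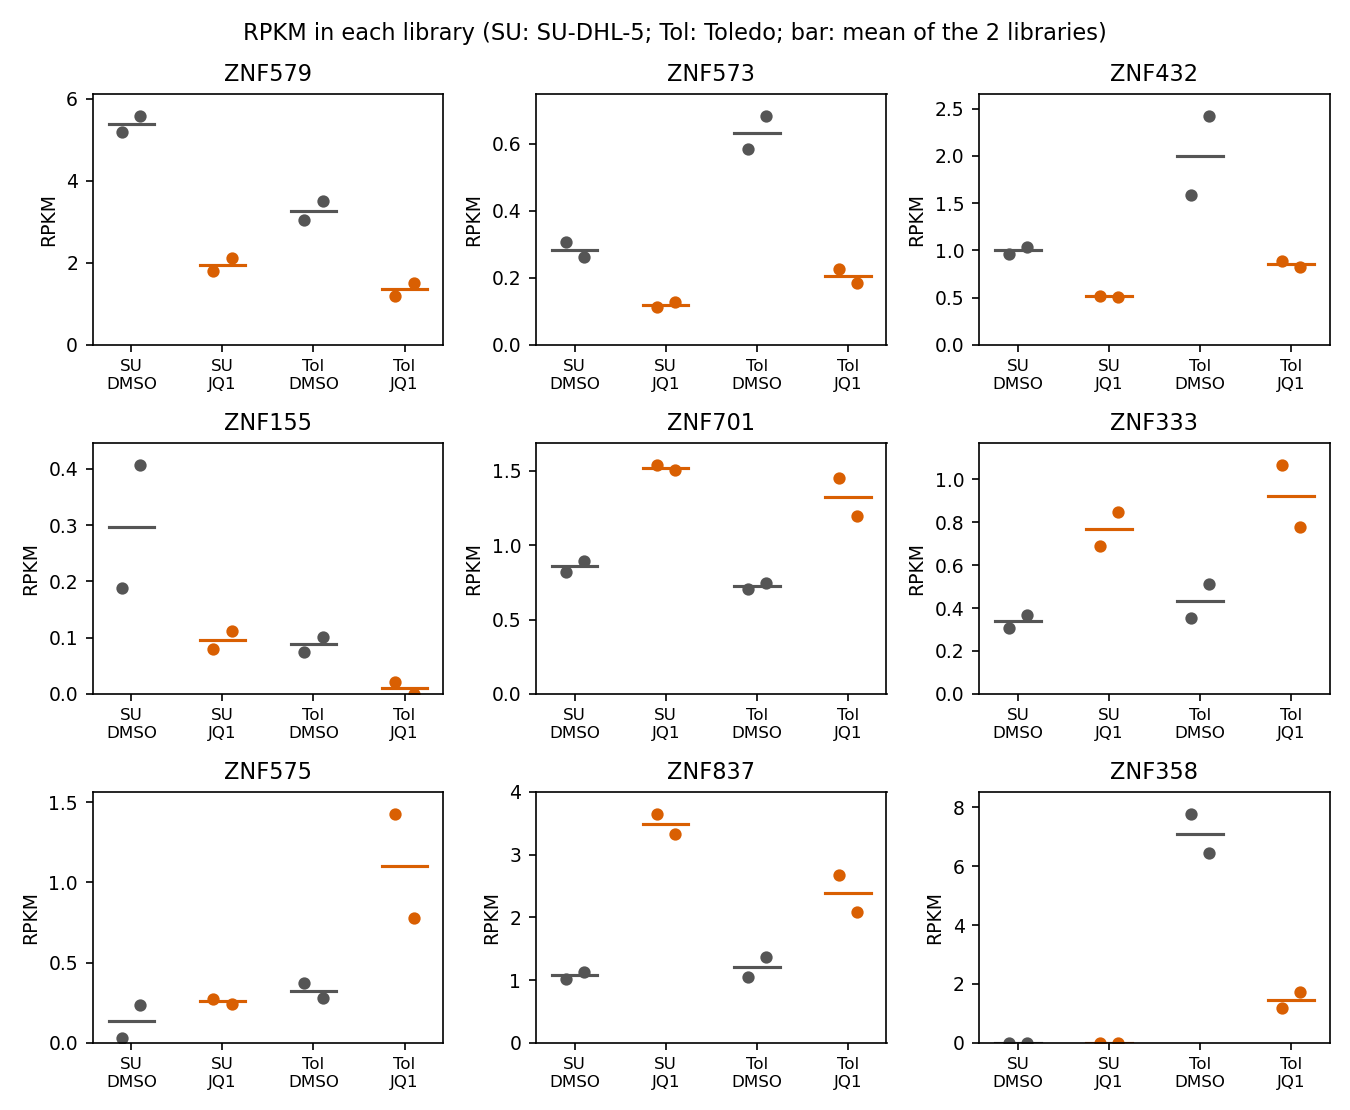
RPKM (vertical axis, from 0) in each library of the 8 members called the same way in both lines and of ZNF358; points are libraries, bars the mean of the 2 libraries, grey DMSO and orange JQ1. In SU-DHL-5 ZNF837 stood at 1.02 and 1.13 RPKM with DMSO against 3.64 and 3.33 with JQ1, and ZNF358 was listed at 0 there.

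In SU-DHL-5 the members as a set lay above the other genes. Their median log2 ratio was 0.14, against 0 over all genes, 0.02 over the 214 ZNF genes of other chromosomes and -0.16 over the 689 other genes of chromosome 19. There were 121 members with a ratio above 0 (59.9%, against 47.7% of all genes). Fewer members were called lower, 9 (4.46%, against 14.8% of all genes, 10.7% of the ZNF genes elsewhere and 21.5% of the other genes of chromosome 19). Called higher were 23 (11.4%, against 8.67%, 7.94% and 5.66%), but whether this share was above that of all genes depended on the rule. With a pseudocount of 1 RPKM it was below (3 members, 1.49%, against 4.41%), as it was at 2-fold (1 member, 0.495%, against 1.94%). These shares were compared as values, and with 1 sample per group no test of the differences was possible.

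In Toledo the members' median was -0.03, against -0.09 over all genes, -0.12 over the ZNF genes of other chromosomes and -0.20 over the other genes of chromosome 19, and 97 members (48.0%, against 41.7% of all genes) had a ratio above 0. There were 25 members called lower (12.4%, against 19.7% of all genes) and 6 called higher (2.97%, against 7.22%). Both shares were below the background, and the spread was narrower: the 10th and 90th percentiles of the members' ratios were -0.65 and 0.35, against -0.99 and 0.49 over all genes. In SU-DHL-5 these percentiles were -0.39 and 0.61, against -0.81 and 0.55. Across the 202 genes, which share libraries and are not independent replicates, the ratios of the lines had a Spearman rho of 0.62, and over all genes it was 0.66.

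The libraries of a sample give the size of differences that no treatment separates. Among members, library 2 and library 1 differed by at least 1.5-fold in 13 genes with DMSO and 8 with JQ1 in SU-DHL-5, for Toledo in 12 and 7, while JQ1 and DMSO differed so in 32 and 31. Between treatments this was 15.8% and 15.3% of the members, less than the 23.9% and 27.2% of all genes. Between libraries it was 3.47% to 6.44% of the members and 3.36% to 4.04% of all genes. The Toledo libraries also differed as a whole: the median log2 ratio of library 2 to library 1 over members was 0.18 with DMSO and -0.13 with JQ1. With library 1 alone the members' median in Toledo was 0.11 and 25 passed 1.5-fold upward (against 11.6% of all genes), and with library 2 alone it was -0.15 and 3 did (against 6.45%). In Toledo neither the sign of the median nor the number of higher members is therefore fixed by these data. The members' transcripts also had a median GC content of 42.4%, below the 49.0% of all genes with a known sequence, and across genes the ratio of DMSO library 2 to library 1 was lower at higher GC content (Spearman rho -0.36 for SU-DHL-5 and -0.46 for Toledo, over 10966 genes of the same libraries). When each ratio was centred on genes of like GC content, a choice made after seeing the data, the members' median was 0.07 for SU-DHL-5 and 0.04 for Toledo, and 15 members instead of 23 were called higher in SU-DHL-5, which is 7.43% and below the 8.43% of all genes.

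**Figure D2:**
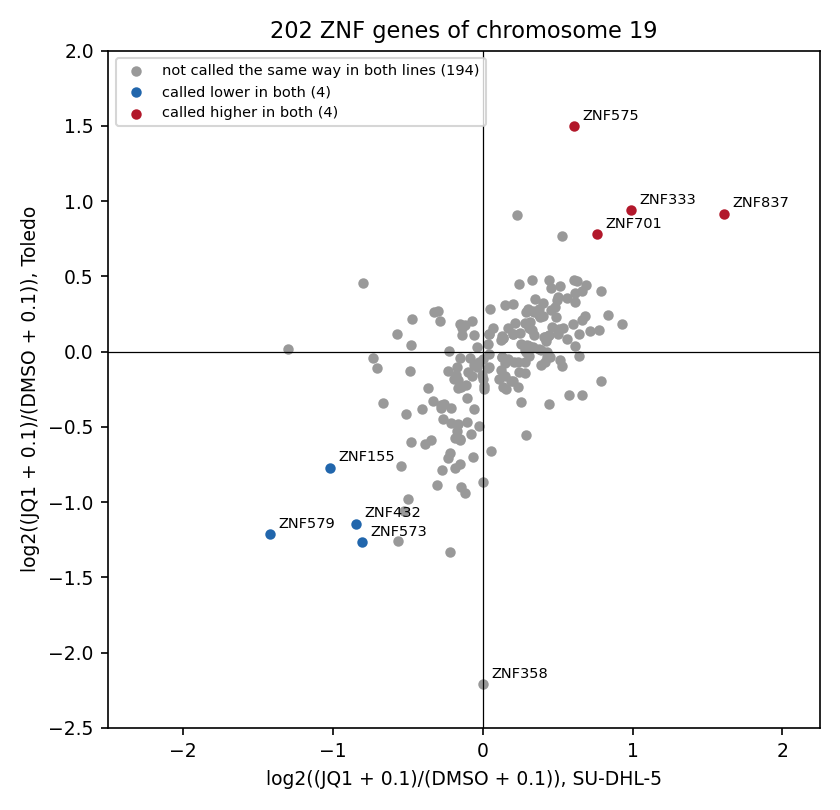
Log2 ratio of JQ1 to DMSO of each of the 202 members in SU-DHL-5 (horizontal) and Toledo (vertical); blue points were called lower and red points higher in both lines. ZNF579 lies at -1.42 and -1.22 and ZNF837 at 1.61 and 0.92, and ZNF358, listed at 0 in SU-DHL-5, lies lowest of all in Toledo at -2.21.

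ZNF358 (chr19:7515283-7521025, plus strand) had the lowest ratio of any member. It was listed at 0 in all 4 libraries of SU-DHL-5, and in Toledo it stood at 7.76 and 6.43 RPKM with DMSO and at 1.18 and 1.73 with JQ1, a log2 ratio of -2.21 (interval -2.62 to -1.98, from 502 reads against 98). It was outside the rule by which genes were named, as were the next genes, and was chosen after its values were seen. ZNF546 (chr19:39997036-40017607) had a Toledo log2 ratio of -1.33, with 0.480 and 0.603 RPKM with DMSO and 0.174 and 0.135 with JQ1, beside -0.22 in SU-DHL-5, where its libraries overlapped. ZNF790 (chr19:36818322-36850787) had -1.26 in Toledo and -0.57 in SU-DHL-5. None of the 3 was called higher in SU-DHL-5, and differences between the lines were not tested.

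ZNF507 (chr19:32345608-32387667) was the only ZNF symbol listed in its stretch of the chromosome. In Toledo it was at 3.27 and 4.48 RPKM with DMSO and 1.99 and 1.63 with JQ1 (log2 ratio -1.06). In SU-DHL-5 it was at 3.04 and 2.82 with DMSO and 1.96 and 2.05 with JQ1 (-0.53). Its JQ1 libraries lay below both DMSO libraries in each line, but in SU-DHL-5 the 1.5-fold limit was not reached. ZNF473, whose protein takes part in the 3′ end processing of histone mRNAs, showed the same with -0.60 in Toledo and -0.48 in SU-DHL-5. So did ZNF787, with -0.62 and -0.39. ZNF302 was called lower in Toledo with -0.66 and had 0.05 in SU-DHL-5. These last 3 Toledo calls were near the limit. Of 10 alternatives that kept the 1.5-fold limit, ZNF473 lost its call under 5 (-0.43 with library 1 alone). Those 10 include changes of the filter on low values, which could not end a call. ZNF787 lost its call under 4 (-0.41 with library 2 alone and -0.31 centred on GC content). ZNF302 also lost its call under 4 (-0.31 with library 1 alone).

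Called lower in SU-DHL-5 alone were ZNF649, ZNF878, ZNF460, ZNF57 and ZNF836. All 9 members called lower in SU-DHL-5 were 4.46% of the set, against 14.8% of all genes. ZNF57, which the naming rule includes, stood at 0.858 and 0.853 RPKM with DMSO and at 0.424 and 0.546 with JQ1 (log2 ratio -0.71, and -0.56 with library 2 alone, which is under 1.5-fold), and at 1.89, 1.75, 1.69 and 1.67 in the same order in Toledo (-0.11). The other 4 called lower in SU-DHL-5 alone had no more than 76 reads in either sample of that line. In the upward direction 19 members were called in SU-DHL-5 but not in Toledo, led by ZNF324B (0.93, against 0.18 in Toledo), ZNF823 (0.84 and 0.24) and ZNF529 (0.79 and 0.40). The share of all genes called in 1 line alone was not computed, so these counts have no background. All 23 members called higher in SU-DHL-5 were 11.4% of the set, against 8.67% of all genes. That share was below the one of all genes under 3 of 12 alternatives. ZNF83 was called higher in Toledo alone, with 1.11 and 1.42 RPKM with DMSO and 2.29 and 2.18 with JQ1 (0.77, interval 0.52 to 1.13), though with library 2 alone the ratio was 0.58 and under 1.5-fold. In SU-DHL-5 its ratio was 0.53, with JQ1 libraries above both DMSO libraries. ZNF726, with 17 reads in DMSO and 36 in JQ1, was the other.

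Of the 5 most abundant members ZNF787 alone was called, in Toledo, and that call was lost under 4 of 10 alternatives at 1.5-fold. Those 10 include changes of the filter and the sum over its 1 listed transcript, which could not end the call. ZNF581 (chr19:55643620-55645623), the highest in the set, was at 42.2 and 44.6 RPKM with DMSO and at 35.5 and 35.1 with JQ1 in SU-DHL-5 (log2 ratio -0.30), and at 24.4 and 20.0 with DMSO and 26.2 and 27.5 with JQ1 in Toledo (0.27). The libraries did not overlap in either line, but both differences were under 1.5-fold and in opposite directions. ZNF296 had ratios of -0.04 and -0.08, and ZNF146, whose small protein is made almost wholly of fingers, had 0.01 and -0.25. ZNF428 had 0.25 and -0.34. The most abundant members of 6 further clusters along the chromosome were not called in either line: ZNF317 had 0.04 and -0.01, ZNF101 -0.06 and 0.11, ZNF766 -0.12 and 0.17, ZNF574 0.04 and -0.10, and ZNF780A 0.20 and 0.12. ZNF627, at 2.60 and 3.04 RPKM with DMSO and 4.02 and 3.80 with JQ1 in SU-DHL-5, had 0.46 and, in Toledo, 0.42, with JQ1 libraries above both DMSO libraries in each line.

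A few members were named for what their proteins are known to do rather than by the rule, again after their values were seen. ZNF274, which binds the 3′ ends of other zinc finger genes and recruits SETDB1 to them, had log2 ratios of 0.38 for SU-DHL-5 and 0.01 for Toledo. ZNF91, which represses SVA elements, had 0.44 and 0.48, with JQ1 libraries at 2.65 and 2.57 RPKM over DMSO libraries at 1.98 and 1.81 in SU-DHL-5 and at 3.02 and 2.45 over 1.77 and 2.10 in Toledo. ZNF417 and ZNF587, near-identical genes whose proteins bind endogenous retroviruses, had 0.43 and 0.49 in SU-DHL-5, and their Toledo ratios were 0.11 and 0.23. None of the 4 was called in either line.

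Along the chromosome, the 263 ZNF symbols fell into 17 runs with no gap over 1 Mb between neighbours, of which 14 held members. The 7 runs with at least 10 members held 185 of the 202. They are named here by their first and last listed symbol, in the order from the short to the long arm.

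**Figure D3:**
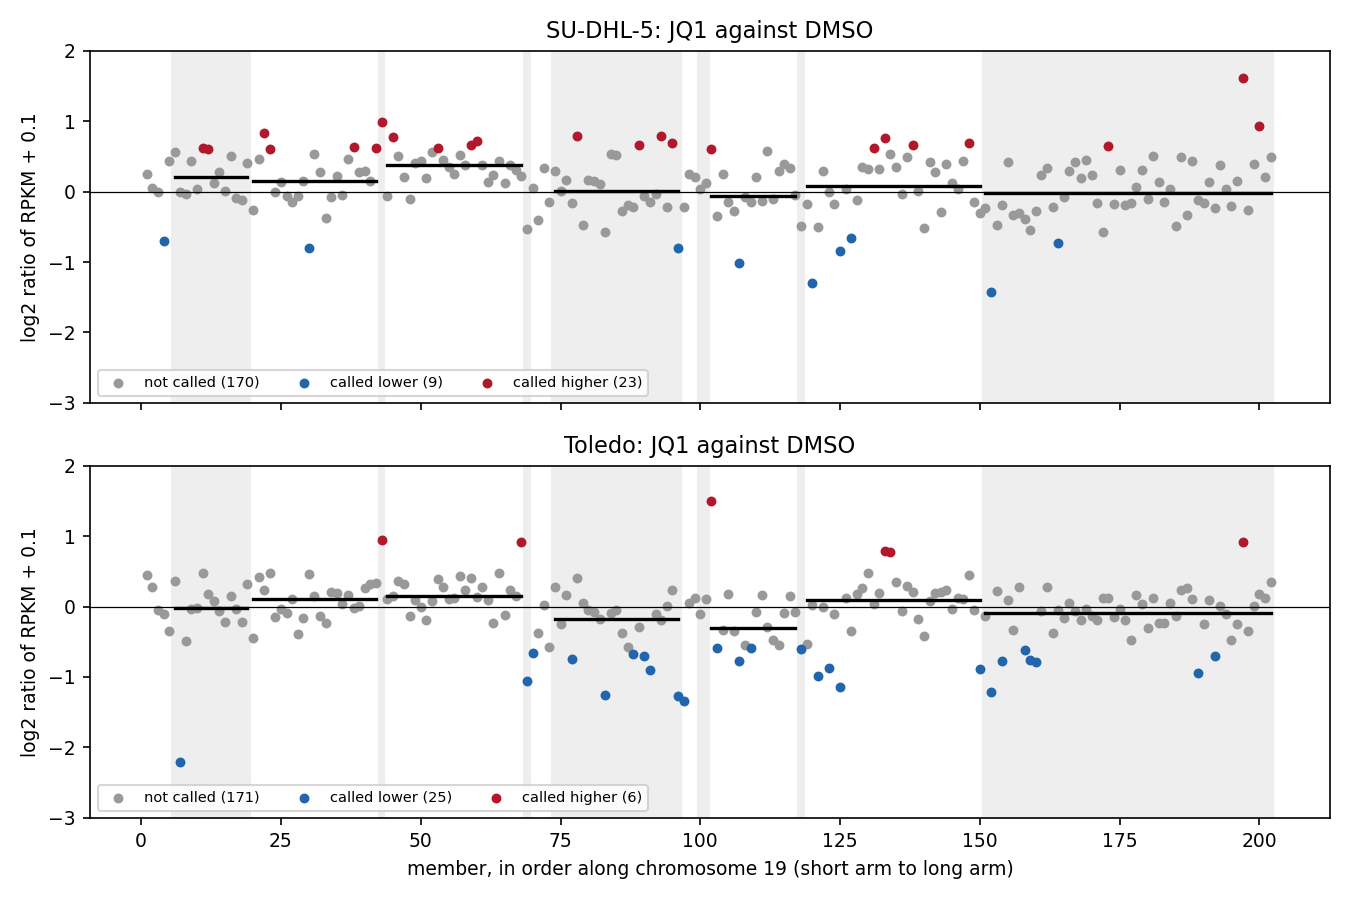
Log2 ratio of JQ1 to DMSO (vertical) of the 202 members in their order along chromosome 19 (horizontal), for SU-DHL-5 above and Toledo below; shading separates the runs, and black lines mark the medians of the 7 runs with at least 10 members. The run from ZNF101 to ZNF726, with medians of 0.37 and 0.14, holds no blue point, which is a member called lower. The run from ZNF557 to ZNF846 holds none in SU-DHL-5, and that from ZNF653 to ZNF791 none in Toledo.

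The run from ZNF101 to ZNF726 (chr19:19668153-24129968), next to the centromere, stood highest. Its 25 members, of 42 ZNF symbols listed there, had a median log2 ratio of 0.37 for SU-DHL-5 and 0.14 for Toledo. The ratio was above 0 in 23 of the 25 in SU-DHL-5 and in 20 in Toledo. None was called lower in either line. For SU-DHL-5 the shares called lower were 4.46% of all members and 14.8% of all genes, for Toledo 12.4% and 19.7%. The run from ZNF557 to ZNF846 also held none in SU-DHL-5, and that from ZNF653 to ZNF791 none in Toledo. Of the 25, 4 were called higher in SU-DHL-5 (ZNF14, ZNF429, ZNF493 and ZNF626, 16%, against 8.67% of all genes). In Toledo 1 was called higher (ZNF726, 4%, against 7.22%). The range ran from -0.10 (ZNF93) to 0.78 (ZNF14) in SU-DHL-5. In 19 of the 25 both JQ1 libraries of SU-DHL-5 lay above both DMSO libraries, against 95 (47.0%) of all members and 36.9% of all genes. Libraries of the same sample differed here too: its members had the highest median ratios of DMSO library 2 to library 1 of the 7 runs (0.21 for SU-DHL-5 and 0.32 for Toledo) and the lowest median GC content (37.5%). Centred on GC content, it was still the highest of the 7 runs in both lines, with 0.24 and 0.16. With library 1 alone its medians were 0.47 and 0.43, but with library 2 alone they were 0.26 and -0.06, and other runs stood higher. The part of library and base composition in its height was not tested.

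Lowest stood the run from ZNF575 to ZNF296 (chr19:43532859-45076430), with a median over its 16 members of -0.06 for SU-DHL-5 and -0.31 for Toledo. In SU-DHL-5 it was lowest under 6 of 10 alternatives; the run from ZNF628 to ZNF446 was lowest among genes of at least 1 RPKM and with library 1 alone, and that from ZNF565 to ZNF573 with library 2 alone and when centred on GC content. In Toledo it was lowest under 9 of 10, the exception being genes of at least 1 RPKM, where the run from ZNF565 to ZNF573 was. It held 1 member called lower in SU-DHL-5, 3 such members in Toledo (18.8%, against 19.7% of all genes), and also ZNF575, the member with the highest Toledo ratio. The run from ZNF565 to ZNF573 (chr19:36182060-37779590), with 23 members, had 0.01 and -0.18, and 6 of its members were called lower in Toledo (ZNF260, ZNF790, ZNF383, ZNF569, ZNF570 and ZNF573; 26.1%, against 19.7% of all genes), while 4 others were called higher in SU-DHL-5 (ZNF529, ZNF527, ZNF540 and ZNF607; 17.4%, against 8.67%). ZNF569 and ZNF570 overlap each other at their starts.

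The remaining runs lay between. The run from ZNF557 to ZNF846 (14 members) had medians of 0.20 and -0.03, and that from ZNF653 to ZNF791 (23 members) 0.15 and 0.11. The run from ZNF175 to ZNF331 (32 members) had 0.08 and 0.09 and held ZNF432, ZNF701 and ZNF83. The run from ZNF628 to ZNF446 (52 members), at the end of the long arm, had -0.02 and -0.09, and held both ZNF579 and ZNF837. When gaps over 0.5 Mb were used instead, the 11 members of its first stretch, from ZNF628 to ZNF835, had the lowest median of SU-DHL-5, -0.30. Adjacent members of a run differed less than members of different runs, by a smaller margin in SU-DHL-5 than in Toledo. The median absolute difference in log2 ratio was 0.36 against 0.39 for SU-DHL-5 and 0.27 against 0.36 for Toledo. These margins were not tested.

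**Figure D4:**
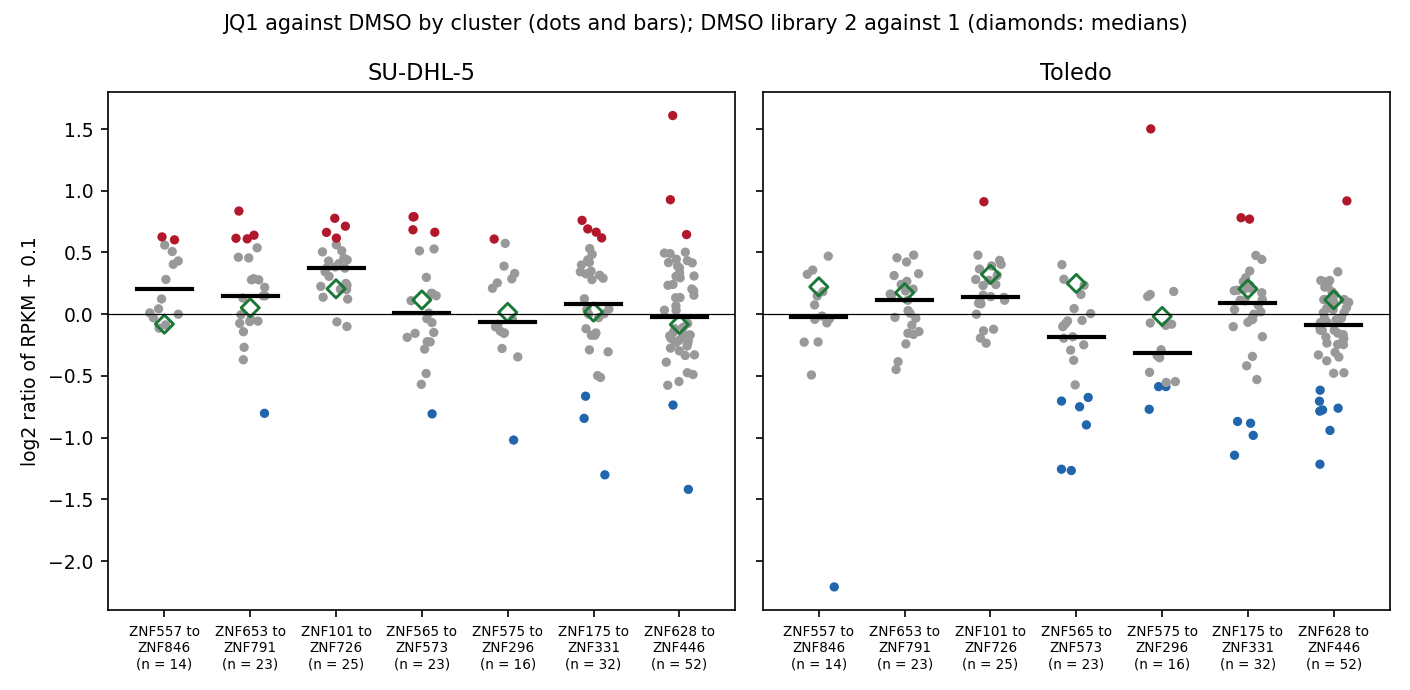
Log2 ratio of JQ1 to DMSO (vertical) of the members of the 7 runs with at least 10 members; points are members (blue called lower, red called higher), black bars medians, and green diamonds the median log2 ratio of DMSO library 2 to library 1. The run from ZNF101 to ZNF726 has both the highest bars (0.37 and 0.14) and the highest diamonds (0.21 and 0.32).

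Members that match the KRAB A-box pattern numbered 139 and had medians of 0.20 for SU-DHL-5 and 0.04 for Toledo. Of these 5 were called lower (3.60%, against the 14.8% of all genes) and 17 higher (12.2%, against 8.67%) in SU-DHL-5, and 9 lower (6.47%, against 19.7%) and 3 higher (2.16%, against 7.22%) in Toledo. The members without a match may include genes whose KRAB domain departs from the pattern. The split is therefore one by pattern and not one of KRAB genes against others. These 63 had medians of 0.01 and -0.13. Of these 4 were called lower (6.35%) and 6 higher (9.52%) in SU-DHL-5, and 16 lower (25.4%) and 3 higher (4.76%) in Toledo. The number of fingers per protein ran from 1 to 31 with a median of 12. The 9 members with up to 4 fingers, whose transcripts had a median GC content of 65.2%, had medians of -0.30 and -0.34, and the groups with more fingers had 0.14 to 0.20 in SU-DHL-5 and -0.03 to 0.01 in Toledo. By GC content, the 67 members with the lowest values had medians of 0.23 and 0.09, the 67 in the middle 0.14 and -0.03, and the 68 with the highest -0.04 and -0.11. The KRAB pattern, the finger number, the position and the GC content go together in these genes and cannot be told apart here.

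By length, the 68 members with the longest transcripts (4246 to 12461 bases) had medians of 0.27 and 0.10, and the 67 with the shortest (1109 to 2895 bases) 0.01 and -0.03. By level, cut into 3 groups of like size, the medians from low to high were 0.12, 0.22 and 0.13 in SU-DHL-5, while those of Toledo were -0.04, -0.03 and 0.03. Of the 9 members called lower in SU-DHL-5, 6 were among the 67 of lowest level, under 1.07 RPKM, where counting error is largest.

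A promoter window was found for 182 of the members. GGGCGG was in 67.6% of these windows, against 44.6% of all 27305 windows and 70.4% of those of genes that passed the minimum level. CCAAT, the core of the site of NF-Y, was in 56.6%, against 35.7% and 37.6%. TATAAA, the TATA box, was in 2.198%, against 11.95% and 5.30%. CACGTG, the E-box to which MYC binds, was in 4.40%, against 7.43% and 10.4%. GCATGCGC, the core of the NRF1 site, was in 4.40% against 3.27% and 5.92%, and ACTACAA, part of a longer element often found in promoters, in 5.49% against 2.95% and 4.18%. All were searched on both strands, and none of these motifs contains another. Among members called lower in a line, 14 of 27 windows held GGGCGG and 7 CCAAT, and among those called higher 19 of 24 held GGGCGG and 12 CCAAT.

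In DMSO, 54 members were called higher in Toledo (26.7%, against 28.9% of all genes) and 34 higher in SU-DHL-5 (16.8%, against 24.3%) by the same rule. The median log2 ratio of Toledo to SU-DHL-5 was 0.24, against 0.03 over all genes and 0.43 over the ZNF genes of other chromosomes. Listed at 0 in both DMSO libraries of SU-DHL-5 were ZNF556, ZNF358, ZNF615, ZNF610 and ZNF880, and in Toledo ZNF90, ZNF350 and ZNF606. ZNF350 (ZBRK1), a repressor known to bind BRCA1, stood at 0.762 and 0.730 RPKM with DMSO in SU-DHL-5, and ZNF90 at 1.59 and 1.58. ZNF615 and ZNF350 lie next to each other on the chromosome and were each listed at 0 in a different line. With JQ1 none of these 8 genes exceeded 0.1 RPKM in the line where it was listed at 0 with DMSO. ZNF880 was nonetheless called higher in SU-DHL-5 (log2 ratio 0.62), at 0.0244 and 0.0826 RPKM with JQ1. That call was lost under 3 of 9 alternatives at 1.5-fold. Those 9 include the removal of the filter on low values, which could not end a call.

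ZNF544 (chr19:58228704-58263644) showed the largest ratio towards SU-DHL-5 among members with at least 50 reads in the higher condition of each line, with 9.92 and 9.98 RPKM in DMSO against 1.63 and 1.79 in Toledo (log2 ratio of Toledo to SU-DHL-5 -2.47). ZNF302, ZNF83 and ZNF814 followed with -1.52, -1.43 and -1.43. The largest ratios towards Toledo were those of ZNF419 (1.85), with 2.94 and 3.10 RPKM against 0.511 and 1.02, ZNF530 (1.81), ZNF121 (1.43) and ZNF134 (1.43). With JQ1 ZNF544 was at 9.66 and 10.7 RPKM in SU-DHL-5 and at 1.38 and 1.76 in Toledo.

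**Figure D5:**
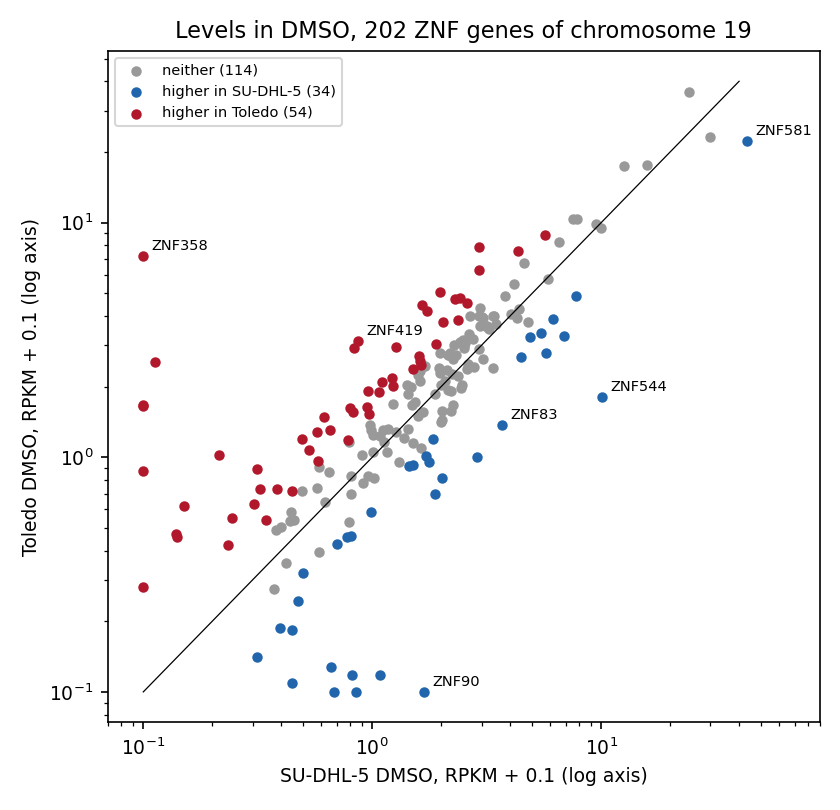
Mean RPKM + 0.1 with DMSO of each member in SU-DHL-5 (horizontal) and Toledo (vertical), on log axes, with the line of equality; red points were called higher in Toledo (54) and blue points in SU-DHL-5 (34). Points at the left and lower edges are genes listed at 0, such as ZNF358 in SU-DHL-5 and ZNF90 in Toledo.

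Most members were listed with several transcripts, at a median of 3. Among members with at least 2 transcripts that had a value, the leading one was that of highest mean RPKM. It was the same in DMSO and JQ1 for 111 of 150 in SU-DHL-5 and 119 of 154 in Toledo. Taken singly, the libraries of the DMSO sample shared their leading transcript for 107 of 149 and 119 of 152. A single library varies more than a mean of 2, so these frequencies cannot be compared directly. Where the libraries of each treatment did share the leading transcript, it differed between treatments in 6 of 85 members in SU-DHL-5 and in 7 of 92 in Toledo. In ZNF586, the lead passed from a transcript at 4.69 and 4.02 RPKM with DMSO and 2.69 and 2.78 with JQ1 to another at 4.04 and 3.48, then 4.18 and 4.87, in SU-DHL-5. In ZNF473 it passed in Toledo from a transcript at 2.16 and 2.95 RPKM with DMSO, and 1.23 and 1.07 with JQ1, to another at 2.05 and 1.81, then 1.87 and 1.69. In both genes the transcript that lost the lead differed more between treatments than the other, and its DMSO and JQ1 libraries did not overlap.

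Of the 23 co-repressor genes listed as partners of KRAB zinc finger proteins, 3 were called lower in SU-DHL-5 (13.0%) and 5 in Toledo (21.7%), against the 14.8% and 19.7% of all genes given above, and none was called higher. Their median log2 ratios were -0.13 and 0.01, against 0 and -0.09 over all genes. CHD3, an ATPase of the NuRD complex that binds TRIM28, was at 38.6 and 33.6 RPKM with DMSO and at 10.9 in both JQ1 libraries of SU-DHL-5 (log2 ratio -1.72), and had -1.56 in Toledo. SUV39H1, a histone H3 lysine 9 methyltransferase, had -0.90 and -1.004. ATF7IP, the partner that stabilises SETDB1, had -1.49 for SU-DHL-5 and 0.38 for Toledo, where its JQ1 libraries lay above both DMSO libraries; this difference between the lines was not tested. SETDB1 itself had -0.48 and -0.67, UHRF1 -0.31 and -1.08 and DAXX -0.45 and -0.60, each called in Toledo alone. TRIM28, at 228 to 293 RPKM in SU-DHL-5, had 0.21 and 0.20.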

How the data were processed

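The authors treated SU-DHL-5 and Toledo cells, prepared libraries with a stranded mRNA kit and deposited a gene table and a transcript table of RPKM values, that is, reads normalised to feature length and mapped reads. The submitters' processing notes name CASAVA 2.0 and the builds GRCh38 and hg38; aligner, counting and annotation are not given in the sources used here. The values are not counts, so no count model was used. Each of the 4 samples had 2 libraries, which were averaged (n = 1 per group); nothing says they came from separate cultures.

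Mapped reads per library were recovered from 313 single-exon genes, as the total that made their values whole reads; 14942 of 14944 genes with a value then gave whole reads within 0.01. Recovered reads served for intervals and for naming genes. Scripts (Python 3.11.15, scipy 1.17.1) were tested on simulated data. Of 32699 symbols shared with RefSeq, 15553 had a deposited start 1 base below the RefSeq start and 326 the same start, so starts were taken as 0-based and are given here 1-based.

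Members and lists were chosen with earlier results of these data known. Named genes, among 162 members with at least 50 reads in the higher condition of each line, were those lowest and highest among members called the same way in both lines, the 5 most abundant, the 4 with the largest DMSO ratio of the lines each way, the most abundant of each run, those nearest the threshold, and the co-repressor genes that were called. Finger, KRAB and GC values came from GENCODE v29 coding sequences and transcripts. The alternatives varied the pseudocount, filter, scaling, centring, library, table, fold and gap.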

Additional observations from a re-analysis of the deposited data

How the results depend on the processing

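No paired analysis was possible because each group had 1 sample and the numbers of its libraries pair nothing. The 12 summary results had 136 alternatives. In 90 a count moved by at most 1.5 times or a median by no more than its spread between single libraries. The other 46 moved more, and the cause was not tested. That spread comes from the single-library alternatives, so it cannot judge them. It passed every alternative of the Toledo median, also where the sign changed. Over the 58 ratios of named members there were 572 alternatives. Some could not move a ratio, namely changes of the filter on low values and, for genes with 1 listed transcript, transcript values summed. In all, 517 stayed within the counting interval, widened by the distance of the ratio from its midpoint. For ZNF880 in SU-DHL-5, with no reads in DMSO, that interval had no upper bound. All alternatives for it counted as outside, also unchanged ones. No ratio changed sign in a line where it was called. Of the 19 calls of named members, 14 were lost under at least 1 alternative that kept the 1.5-fold limit. The 5 that were not are those of ZNF579 in both lines, ZNF837 in SU-DHL-5, and ZNF432 and ZNF507 in Toledo. Changes that could not move a ratio could not end a call.

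In SU-DHL-5 the members' median of 0.14 became 0.062 with a pseudocount of 1 RPKM, 0.10 with library 2 alone and 0.067 when centred on GC content, an alternative chosen after seeing the data, as were all those of the runs other than the gap and those of members called higher in both lines. The 9 members called lower there became 1 with a pseudocount of 1 RPKM, 3 among genes of at least 1 RPKM, 14 with library 1 alone, 3 at 2-fold and 47 with no fold. The 23 called higher became 3 with a pseudocount of 1 RPKM (4.41% of all genes), 1 at 2-fold (1.94%), 95 with no fold (36.9%) and 15 when centred on GC content (8.43%), so that the members' share lay below that of all genes under 3 of 12 alternatives. The share called lower was below under all 12 in each line. In Toledo the 25 called lower became 6 with a pseudocount of 1 RPKM, 16 among genes of at least 1 RPKM, 7 at 2-fold and 61 with no fold. The 6 called higher became 2 with a pseudocount of 1 RPKM, 3 among genes of at least 1 RPKM, 25 with library 1 alone (12.4%, against 11.6% of all genes, the 1 alternative of 12 where their share was above), 3 with library 2 alone, 1 at 2-fold and 45 with no fold. The 4 called lower in both lines became 1 with a pseudocount of 1 RPKM, 2 among genes of at least 1 RPKM, 1 at 2-fold and 34 with no fold. The 4 called higher in both became 1 with a pseudocount of 1 RPKM, 2 among genes of at least 1 RPKM, 13 with library 1 alone, 1 with library 2 alone, 0 at 2-fold and 36 with no fold. Library 1 alone (6.44%, against 5.02% of all genes) was the 1 alternative of 12 where this share was above.

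The highest run median of SU-DHL-5 became 0.27 with a pseudocount of 1 RPKM, 0.47 with library 1 alone and 0.24 when centred on GC content, and that of Toledo 0.43 with library 1 alone. The run from ZNF101 to ZNF726 was highest under 9 of 10 alternatives in SU-DHL-5 and 8 of 10 in Toledo. The exceptions were library 2 alone in both lines and, in Toledo, transcript values summed per gene. The run from ZNF575 to ZNF296 was lowest under 6 of 10 and 9 of 10, and the values that follow include other runs. The lowest run median of SU-DHL-5 became -0.030 with a pseudocount of 1 RPKM, -0.021 among genes of at least 1 RPKM, -0.025 when centred on length, -0.10 with library 2 alone, -0.30 with gaps over 0.5 Mb and -0.14 when centred on GC content. That of Toledo became -0.11 with a pseudocount of 1 RPKM, -0.16 among genes of at least 1 RPKM, -0.21 when centred on length and -0.20 when centred on GC content. Scaling by the median ratio divided JQ1 values by 1.02 (SU-DHL-5) or 0.956 (Toledo) and turned the Toledo median from -0.03 to 0.03. With 1 sample per group, every difference here is one between samples, and depth limits scarce members such as ZNF155.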
